A study of Rattus norvegicus with 12 samples.

Results

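Dense groups of same-strand m6A peaks were examined in the list of peaks that differed between injured and uninjured rat sciatic nerve. The groups were formed from the list itself. Peaks were sorted by chromosome, strand and start, neighbours on the same strand less than 20000 bases apart were joined, and groups of at least 6 peaks were kept. Of 78 such groups, 3 on the minus strand, with 163 peaks, were set aside. The remaining 75 groups held 697 of the 4014 peaks in the list (17.4%, exact 95% Clopper-Pearson interval 16.2 to 18.6). The groups were thus chosen by which peaks the comparison of SNI with control had put in the list and by their positions, so that the number and closeness of peaks in a group are given as a description.

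The control group was uninjured sciatic nerve, and the SNI group was sciatic nerve 7 days after sciatic nerve injury (SNI). Both came from female Wistar rats of 100 to 120 g and 4 weeks of age, and about 1 cm of nerve at the injury centre was taken. Each group had 3 m6A immunoprecipitation libraries and 3 input libraries, 12 in all, made from poly(A) mRNA cut to about 100 nucleotides (MeRIP-seq). The fragments were pulled down with an m6A antibody for the immunoprecipitation libraries and left without pull-down for the input libraries. The deposited list compares the groups over all replicates and gives, for each peak, a position in the rat rn5 build, a strand and a score, which is the −log10 of the p-value of SNI against control. A score of 8 is a p-value of 1e-08. The list was cut at a score of 5, so that no lower score occurs in it. A score measures how strongly the comparison was called and not how large or in which direction the change was. From the list alone, a change in methylation and a change in the amount of the mRNA cannot be told apart. The paper reports that, where both changed, nearly all peaks went in the direction of their mRNA. The list holds no value for any library, so that neither the spread between nerves nor the sequencing depth can be given from it, and no expression level against which the tissue could be checked. In a bulk nerve sample, fewer cells of a type and less RNA per cell cannot be told apart.

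N6-methyladenosine (m6A) is the most common internal modification of mRNA. It is laid down in the nucleus by a methyltransferase complex built on Mettl3 and Mettl14, it can be removed by the demethylases Fto and Alkbh5, and it is read by proteins with a YTH domain, which affect the splicing, decay and translation of the mRNA. The mark is known to lie mostly in long internal exons and near the stop codon. After a sciatic nerve is injured, Schwann cells distal to the lesion divide and macrophages enter the nerve.

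The groups held 6 to 22 peaks, with a median of 8. There were 20 groups of 6 peaks, 27 of 7 to 9, 22 of 10 to 14 and 6 of 15 or more, the last with 110 peaks. From the first start to the last end they spanned 8.60 to 85.1 kb, with a median of 33.8 kb. The peaks themselves covered a small part of these spans, with a median of 3.94% and a range of 0.734 to 72.1%. Wide groups were not simply those with many peaks, since the rank correlation of span with number of peaks over the 75 groups was 0.36 (Spearman). Groups lay on 16 of the 21 chromosomes in the list, with 13 groups on chromosome 1, 10 on chromosome 2, 10 on chromosome 10 and none on chromosomes 11, 17, 18, 19 and 20. The list itself had 489, 366 and 298 peaks on chromosomes 1, 2 and 10. On chromosomes 11, 17, 18, 19 and 20 it had 79, 125, 94, 63 and 59. On the minus strand there were 46 groups with 421 peaks and on the plus strand 29 groups with 276 peaks. The split of the whole list by strand was not counted. No group had a peak of the opposite strand within its span.

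**Figure D1:**
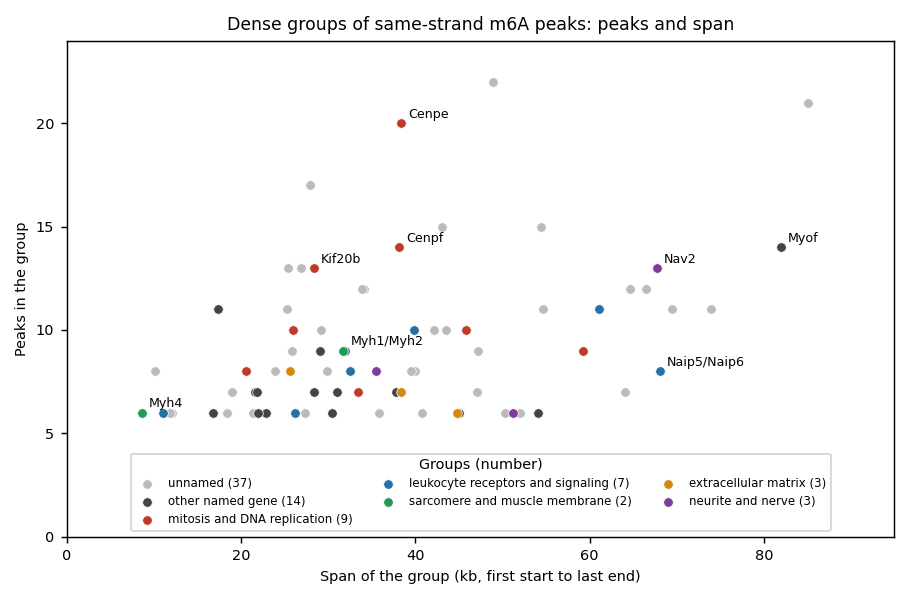
Number of peaks (vertical axis) against span in kb (horizontal axis) for each of the 75 dense groups, one point a group, coloured by the list that holds its named gene. Groups of 6 peaks ran from 8.60 kb (Myh4) upwards, and the group with the most peaks, 22, was unnamed.

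At the limits of the choice, the 20 groups of exactly 6 peaks had a median score of 7.62, a median peak length of 132 bases and a median span of 26.7 kb. The 32 groups of 5 peaks that were left just outside had a median score of 7.93, a median length of 145 bases and a median span of 18.9 kb. The widest gap inside a group was 19804 bases and the narrowest gap that ended one was 20737 bases. At 11 group ends the next peak on the same strand lay less than 25 kb away.

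A gene name could be given to 38 groups, and 37 stayed unnamed. By identical start and end with a row of the part of the study's annotated peak table used here, 82 of the 697 peaks were named (11.8%, interval 9.47 to 14.4), where the share over the whole list was 13.1%. That part of the table lists peaks called in a single direction, higher after injury, so that names were given unevenly, and the direction of the other peaks is not given here. A further 15 peaks, all in myosin heavy chain genes, were named by overlap with a printed locus on the same strand. The paper printed these loci for its mRNAs with the largest changes in expression, where the myosins were lower after injury. All other genes were named by rows, so that the myosins entered by another route. In all 41 genes were named. The groups were not always single transcripts. In 3 groups more than 1 gene was named, namely Myh2 with Myh1, Naip5 with Naip6, and Abca7 with Hmha1. For 5 genes, Nav2, Tenm3, Adam12, Fyb and Fnbp1l, 9 further named peaks lay outside the group. In most named groups only some of the peaks carried the name. The other peaks, between or beyond the named ones, were counted with the group because of their position. Below, the peaks of a gene are those of its group, and which gene the unnamed ones belong to was not determined.

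Among the gene lists, the one for cell division had the most genes named in dense groups. How many genes of each list were named over all peaks was not counted. The counts and their order, here and below, are therefore not read as a trait of dense groups. Of the 61 genes in a list for mitosis and DNA replication, 9 were named in a dense group (Cenpe, Cenpf, Casc5, Kif11, Kif20b, Kif4a, Smc2, Anln and Mki67), each in a group of its own. Over all 697 peaks of the dense groups, 301 scored 8 or more (43.2%, interval 39.5 to 47.0), where the share over the whole list was 37.1%. Over the 100 peaks of the 9 cell division groups the count was 58 (58.0%, interval 47.7 to 67.8) and the median score was 8.50, against a median of 7.70 for all dense groups and 7.46 for the list. Scores come from the contrast that made the list, and peaks of a transcript share their libraries, so that no test was made. The medians of the 9 groups ran from 7.47 for Kif11 to 10.7 for Cenpf. Counts at 8 or more ran from 2 of 9 peaks in the Anln group to 8 of 9 in the Casc5 group.

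Among the cell division genes, 3 code for proteins of the kinetochore. Cenpe, a kinesin that carries chromosomes along spindle microtubules, had the most peaks of any named group, 20 over 38.3 kb on the plus strand of chromosome 2 (258919757 to 258958080), 6 of them named. The lowest of their scores was 5.39, the median 7.62 and the highest 12.8. The values of 12.55 and 12.78 belonged to the second and the third peak from the 5′ end, next to the lowest in the first. Cenpf, a large coiled-coil protein of the outer kinetochore, had 14 peaks over 38.1 kb on the minus strand of chromosome 13 (112766837 to 112804965). Of these, 12 scored 8 or more, with a lowest value of 6.75, a median of 10.7 and a highest of 12.7. The only 2 under 8 were also the longest, peaks of 3383 and 2298 bases with scores of 7.71 and 6.75, which lay next to each other toward the 3′ end. Casc5 (current symbol Knl1), the kinetochore scaffold on which the spindle checkpoint assembles, had 9 peaks over 59.2 kb on the plus strand of chromosome 3 (117392642 to 117451860). In this group 8 peaks scored 8 or more and only the first, the one that carried the name, was lower, at 7.41. The Casc5 group held both the highest score of all dense groups, 13.04 in a peak of 91 bases (117429548 to 117429639, rank 8 of the 4014), and their longest peak, 4482 bases with a score of 9.63.

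Scores varied widely among the peaks of the mitotic kinesins. Kif11, which pushes the spindle poles apart, had 10 peaks over 45.8 kb on the plus strand of chromosome 1 (263519575 to 263565360), 5 of them named. In 5′ to 3′ order their scores were 5.24, 5.75, 5.18, 11.7, 11.99, 9.46, 11.3, 5.61, 7.0001 and 7.94. Low scores thus stood at both sides of a run of 4 peaks above 9, and the SD of 2.79 was the highest of the 75 groups. Kif20b, a kinesin of late mitosis, had 13 peaks over 28.3 kb on chromosome 1 (260455124 to 260483460, plus strand) with a lowest score of 5.30 and a median of 8.52. Its peak of 61 bases with a score of 13.02 was second among all peaks of dense groups. Kif4a, a chromosome-arm and central-spindle kinesin, had 7 peaks over 33.4 kb on chromosome X, whose scores lay between 5.04 and 11.4 around a median of 9.13.

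The remaining cell division groups were those of Smc2, Anln and Mki67. Smc2, a core subunit of condensin, had 10 peaks on chromosome 5 with scores from 7.04 to 10.8, a median of 8.26 and an SD of 1.21, the lowest SD of the 9 groups. Anln, the contractile ring scaffold anillin, had 9 peaks on chromosome 8, of which the first scored 12.04, the seventh 9.72 and the other 7 between 6.48 and 7.82. Mki67, the proliferation marker Ki-67, had 8 peaks over 20.5 kb on the minus strand of chromosome 1 (214931939 to 214952481), and its last peak, 4448 bases long, had the lowest score of the group, 5.54. Together the peaks of Mki67 covered 31.8% of its span.

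Leukocyte genes were the next set by number of genes. Of 54 genes in a list of leukocyte receptors and signaling, 7 were named in a dense group. Of the 58 peaks in these 7 groups, 14 scored 8 or more (24.1%, interval 13.9 to 37.2), with a median of 7.14. The share over the whole list was 37.1%. Ptprc, the leukocyte common antigen CD45, had 11 peaks over 61.1 kb on the minus strand of chromosome 13 (60095421 to 60156509), and all lay in a narrow band of scores from 5.28 to 6.89 with an SD of 0.50. The Ptprc peaks were the shortest of any group, with a median of 44 bases and a last peak of 1 base. Dock2, a Rac activator in migrating leukocytes, had 10 peaks with scores from 5.56 to 11.9, and only its first peak exceeded 8.16. Lcp2 and Fyb (current symbol Fyb1), adaptors that work together below the T cell receptor, had 8 and 9 peaks. Lcp2 had scores between 6.89 and 9.12, with 7.84 in the middle. Fyb had scores between 6.46 and 11.1, with a median of 7.03, and 7 of its 9 peaks were under 8. Prex1, another Rac activator, had 6 peaks from 5.01, the lowest score in any dense group, to 10.6.

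Innate immune sensors made up the rest of the leukocyte list. The group of Naip5 and Naip6, sensors of bacterial proteins, had 8 peaks over 68.0 kb on the minus strand of chromosome 2 (49549720 to 49617763) with a median score of 7.74. Naip6 is in the list and Naip5 is not. None of the 8 peaks had both ends off the 20-base grid described further on, and their median length of 701 bases was the highest of the 75 groups. Nlrp6, an inflammasome sensor, had 6 peaks over 11.1 kb on chromosome 1 with a median score of 7.21. Naip5 and Naip6 are close paralogs, and how the authors split reads between them is not given, so that their peaks are uncertain.

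Muscle myosins formed a compact set with scores below 8. Of 36 sarcomere and muscle membrane genes, 3 were named, the fast skeletal myosin heavy chains Myh1, Myh2 and Myh4. They lie next to each other on the plus strand of chromosome 10 and were named only by printed loci. The groups set aside were not searched for genes of this list, so that the count covers only the groups kept. The 15 myosin peaks scored between 6.20 and 7.69 with a median of 6.93. None reached 8 (0 of 15, interval 0 to 21.8%), where the share over the whole list was 37.1%. That interval takes the peaks as independent, although they lie in 2 groups of neighbouring paralogs. In the joint group of Myh2 and Myh1 (53482341 to 53514060) the 3 Myh2 peaks had scores of 7.47, 6.93 and 7.25. The 6 Myh1 peaks had scores of 6.64, 6.30, 6.20, 6.98, 6.89 and 7.22. In the Myh4 group (53544065 to 53552664), the narrowest of all at 8.60 kb, the 6 scores were 7.69, 6.31, 6.33, 7.24, 7.20 and 6.56. Myh1 and Myh4 each held a peak of exactly 390 bases, with scores of 6.20 and 6.33. These genes are close paralogs, so that reads may have been shared among them.

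Matrix and nerve genes were named in few groups. From the extracellular matrix list 3 of 31 genes were named. Of the 21 peaks in their groups, 7 scored 8 or more (33.3%, interval 14.6 to 57.0), where the share over the whole list was 37.1%. Adam12, a membrane metalloprotease, had 6 peaks with scores of 12.2, 5.44, 8.57, 8.01, 9.07 and 11.6 in 5′ to 3′ order. Itgb8, the integrin β8 chain, had 7 peaks from 6.28 to 10.7. Tnc, the matrix glycoprotein tenascin C, had 8 peaks from 5.05 to 7.26, and the lowest of these was 1410 bases long. From the neurite and nerve list 3 of 41 genes were named, in 3 groups. Of the 27 peaks in these groups, 4 scored 8 or more (14.8%, interval 4.19 to 33.7), beside the same 37.1%. Nav2, a neuron navigator of growing axons, had 13 peaks over 67.7 kb between 5.27 and 10.8 in score, and a median of 7.19. Gas7, which promotes neurite outgrowth, had 8 peaks from 6.66 to 9.69. Tenm3, a teneurin of neuronal wiring, had 6 peaks from 5.32 to 6.45, and its median of 5.70 was the lowest of the 75 groups.

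The other 16 named genes were in no list. Fnbp1l, an F-BAR protein of membrane curvature and actin assembly, had the highest median of all groups, 10.9, over 9 peaks with scores of 7.91, 6.64, 11.4, 6.10, 10.9, 11.2, 11.0, 11.4 and 8.60. Its peaks thus fell into 5 above 10 and 4 below 9. Hook1, an adaptor for dynein, had 11 peaks within 17.4 kb, with scores from 5.03 to 12.5. Myof, a ferlin of membrane repair, had 14 peaks spread over 82.0 kb of chromosome 1 (264109381 to 264191332, minus strand), with scores from 5.26 to 11.4.

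Chromatin, receptor and transport genes were also among the named groups. Dnmt1, the maintenance DNA methyltransferase, had 6 peaks with scores of 8.18, 6.73, 5.70, 6.60, 7.61 and 6.64, all with both ends off the grid. Chd3, a chromatin remodeler of the NuRD complex, had 6 peaks with scores of 10.4, 9.47, 9.75, 6.84, 6.63 and 5.66, the 3 nearest the 5′ end being the highest. Osmr, the oncostatin M receptor, had 7 peaks from 5.10 to 12.1, and Sema3e, a secreted axon guidance factor, had 7 from 7.10 to 9.43. The motor Myo5a had 7 peaks with a median of 7.72, and the bicarbonate transporter Slc4a7 had 6 with a median of 6.88. The group of Abca7, a lipid transporter, and Hmha1 (current symbol Arhgap45), a GTPase-activating protein, had 6 peaks between 5.57 and 7.93. Rps15 codes for a small ribosomal protein, but only 1 peak of 24 bases carried its name in a group of 7 over 21.8 kb, and which gene the other 6 belong to was not determined.

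Unnamed groups included the one with the most peaks. On the minus strand of chromosome 6 (109076009 to 109124876) 22 peaks lay in 48.9 kb, from a score of 6.96 to one of 12.99 with a median of 8.71, 13 of them at 8 or more. The widest group of all, 85.1 kb on the plus strand of chromosome 14 (37457563 to 37542630), had 21 peaks, of which only 3 scored 8 or more, with a median of 7.24. The next by number were a group of 17 on chromosome 9 (99866001 to 99893950, minus strand, median 7.97), a group of 15 on chromosome 15 (51846322 to 51900738, plus strand, median 8.14) and a group of 15 on chromosome 9 (88020854 to 88063908, minus strand, median 7.55). Other wide groups of 11 peaks each lay on chromosome 14 (41805132 to 41879077, plus strand, 73.9 kb) and chromosome 16 (32204876 to 32274325, minus strand, 69.4 kb). The highest unnamed medians were 10.3 on chromosome 10 (86704473 to 86728312, minus strand, 8 peaks), 9.997 on chromosome 3 (59416551 to 59457345, minus strand, 6 peaks) and 9.83 on chromosome 14 (42577401 to 42632035, minus strand, 11 peaks). Of the 5 highest peak scores in dense groups, 3 lay in unnamed groups, namely 12.99 and 12.91 in the chromosome 6 group and 12.98 in a peak of 51 bases on chromosome 13 (54474172 to 54474223, minus strand).

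**Figure D2:**
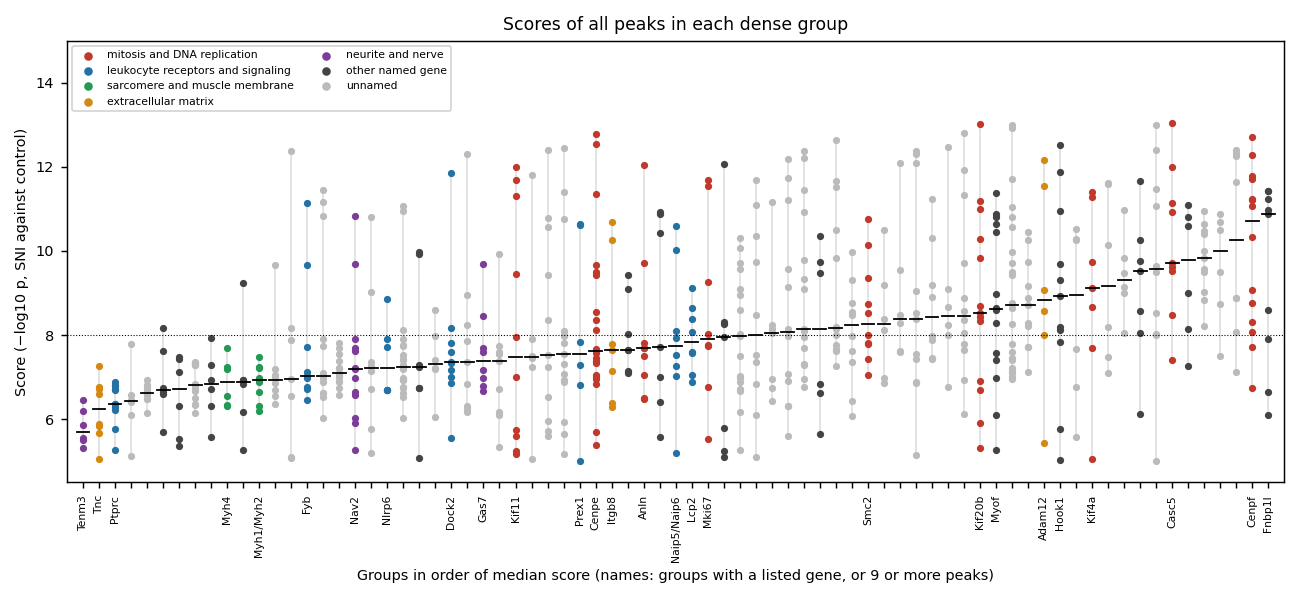
Score (−log10 p of SNI against control) of each of the 697 peaks, one column a group, in order of the group median (black bar), with the dotted line at 8 and colours by gene list. Gene names are shown for groups with a gene in a list and for named groups of 9 or more peaks. Medians rose from 5.70 in Tenm3 to 10.9 in Fnbp1l, and most groups crossed the line.

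Peaks of the same group were only weakly alike in score. In 62 of the 75 groups some peaks scored 8 or more and others less. The intraclass correlation of score within groups, which is 0 where peaks of a group are no more alike than peaks of different groups and 1 where they are equal, was 0.172. In groups of 2 to 5 peaks it was 0.194. The SD within groups was 1.73, beside 1.901 over all their peaks. Adjacent peaks were somewhat closer, with a Pearson correlation of 0.308 and a Spearman correlation of 0.365 over 622 neighbouring pairs, beside 0.184 and 0.201 over 974 pairs in groups of 2 to 5. These pairs share transcripts, libraries and depth, so that the correlations are descriptions. The median difference in score between neighbours was 1.18.

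In a few groups all scores lay on the same side of 8. In 11 groups no peak reached 8, and these 93 peaks scored 5.05 to 7.93 with SDs from 0.246 to 0.947. As the list has no score below 5, the choice confined these groups to scores of 5 to 8, which limits their SDs. The 11 groups included those of Ptprc, Tenm3, Tnc, Myh4, Myh2 with Myh1, and Abca7 with Hmha1, and 4 unnamed groups. In 2 groups, both unnamed, every peak reached 8. One was the group of 11 on chromosome 14 at 42577401, with scores from 8.22 to 10.9. The other had 6 peaks on the plus strand of chromosome 10 (20465067 to 20483440), with scores of 9.83, 9.47, 8.05, 11.0, 8.99 and 9.13. Over the 75 groups, a higher median went with a higher SD (Spearman correlation 0.47). The floor of 5 bounds the spread of groups with low medians, so that this correlation is only a description.

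Scores of dense groups were near those of smaller groups. The median was 7.70 (quartiles 6.85 and 9.50) in dense groups, 7.65 in the 1579 peaks of groups of 2 to 5, and 7.22 in the 1575 single peaks. The shares at 8 or more were 43.2%, 42.2% and 31.3%. The 163 peaks set aside had a median of 7.03 and a share of 17.8%. Over the 75 groups the number of peaks and the median score had a rank correlation of 0.08. These differences were not tested.

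Dense groups had short peaks. Their median length was 129 bases (quartiles 91 and 184), beside 156 in groups of 2 to 5, 169 in single peaks and 152 in the list, differences that were not tested. The 163 peaks set aside had a median length of 121 bases, and 1.23% of them were of 500 bases or longer. In the dense groups kept, 44 peaks were of 500 bases or longer (6.31%, interval 4.62 to 8.38), where the share over the list was 11.3%. These 44 peaks, in 25 groups, held 35.8% of the 141499 bases covered by dense groups. None of the 5 longest carried a gene name. They had 4482 bases in the Casc5 group, 4448 in the Mki67 group, and 3383 and 2298 in the Cenpf group. The last, of 2148 bases, lay in an unnamed group on chromosome 2. At the other end, 7 peaks were of 5 bases or fewer. Length and score were nearly unrelated over the 697 peaks (Spearman correlation 0.03).

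The ends of peaks fell into separate kinds. Many ends in the list sit on a grid of 20 bases, with a start 1 base past a multiple of 20 or an end at a multiple of 20, and others do not. In dense groups 460 peaks had both ends off the grid (66.0%, interval 62.3 to 69.5), where the share over the list was 51.6%. The shares were 47.7% in groups of 2 to 5, 46.8% in single peaks and 74.2% in the peaks set aside, and the differences were not tested. A further 192 dense-group peaks had 1 end on the grid and 45 had both. Peaks with both ends on the grid were longer, with a median of 379 bases, against 127 for those with both ends off. Their median scores were 7.04 and 7.77, beside 7.75 and 7.61 in groups of 2 to 5 and 7.29 and 7.21 in single peaks, so that the order was not the same outside the dense groups. Of the 45 dense-group peaks with both ends on the grid, 12 and 7 came from 2 unnamed groups with low scores, described next. Of the 460 off-grid peaks, 194 had a length that is a multiple of 3 (42.2%, interval 37.6 to 46.8), with 29.3% and 28.5% at a remainder of 1 and 2. In the rest of the list, without the 163 peaks set aside, 43.0% of the off-grid lengths were multiples of 3. The share was 85.1% in the peaks set aside and 45.3% over the whole list. Whether these ends are those of annotated exons was not tested, since no rn5 annotation was used here.

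Single groups stood at both extremes of this measure. Among the named groups, all 14 peaks of Cenpf, all 7 of Myo5a and all 6 of Dnmt1 and of Slc4a7 had both ends off the grid. In an unnamed group of 13 peaks on the plus strand of chromosome 3 (60248957 to 60274320), 12 had both ends on it, with lengths from 239 to 979 bases, and all 13 scores lay in a narrow band from 6.56 to 7.82. In an unnamed group of 8 on the minus strand of chromosome 2 (41898381 to 41908429), 7 had both ends on it. That group had the most peaks per length of the 75 groups, the highest coverage, with 72.1% of its 10.05 kb, and the most even scores, from 6.14 to 6.92 and an SD of 0.246. These groups were chosen after their values were seen.

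**Figure D3:**
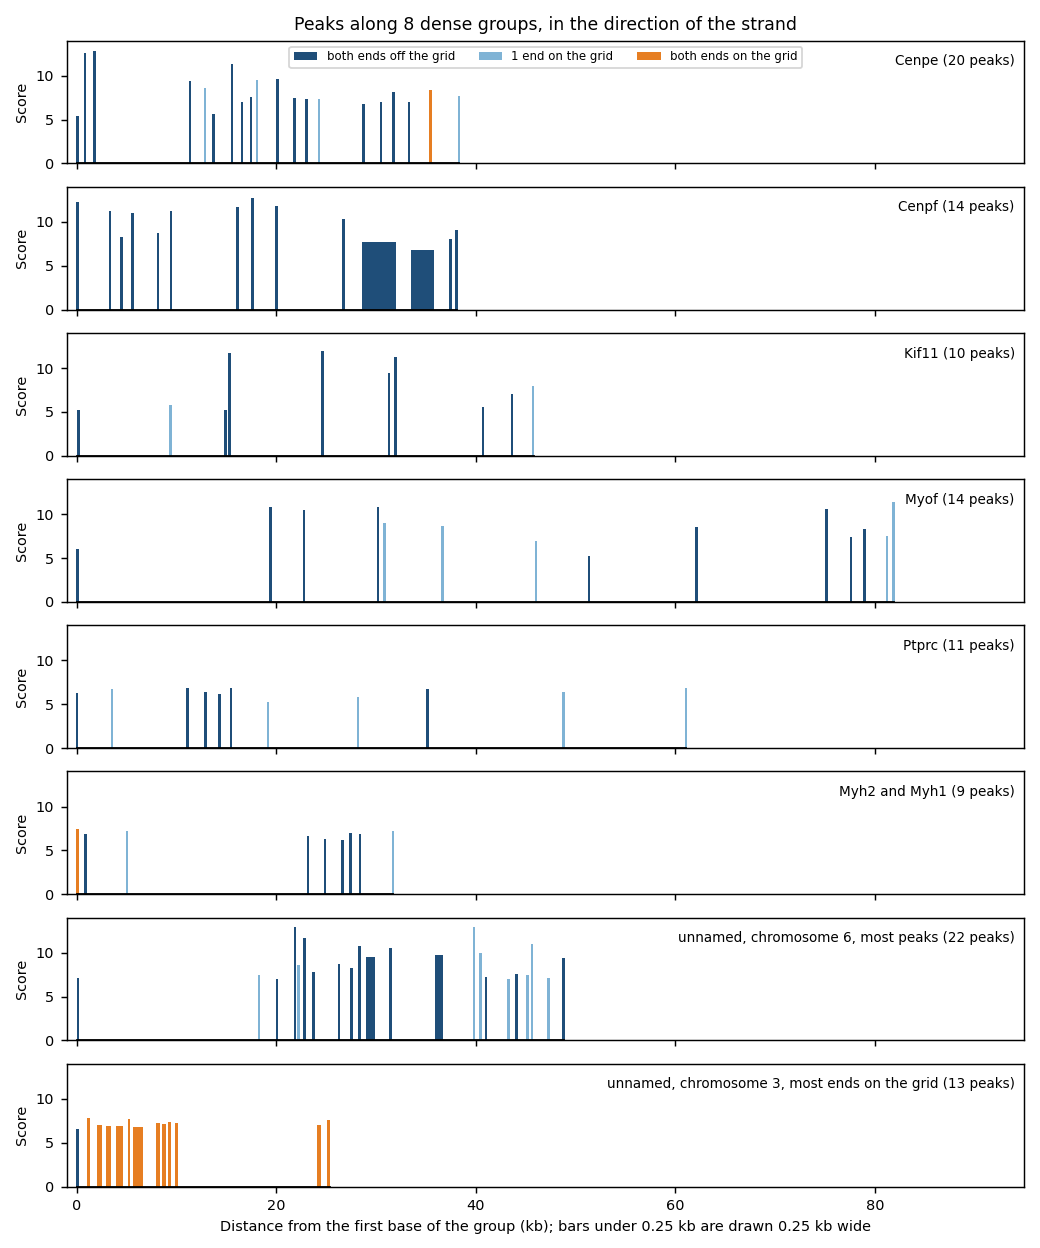
Peaks along 8 dense groups, drawn from the first base of the group in the direction of its strand (kb, horizontal axis), with bar height giving the score and colour the number of ends on the 20-base grid. Cenpf has 2 broad low bars near its 3′ end, Kif11 has high bars in its middle, Ptprc stays between 5.28 and 6.89, and the chromosome 3 group has 12 of 13 bars with both ends on the grid.

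Peaks were also described by their place within the group, with no test. Of the first peaks in the direction of the strand, 72.0% had both ends off the grid (interval 60.4 to 81.8), of the 547 inner peaks 67.6% (63.5 to 71.5) and of the last peaks 48.0%. Both ends were on the grid in 1.33% of first, 5.85% of inner and 16.0% of last peaks. Lengths of 500 bases or more were found in 5 of 75 first, 28 of 547 inner and 11 of 75 last peaks (14.7% of the last, interval 7.56 to 24.7). The median lengths were nevertheless close, at 126, 129 and 132 bases. Median scores were 7.71, 7.76 and 7.48 in the same order. The highest score of a group was in its first peak in 14 groups, in an inner peak in 57 and in its last peak in 4. The lowest score was in the first peak in 12 groups, in an inner peak in 51 and in the last peak in 12. Most peaks were inner ones (547 of 697), so that the counts for inner peaks are not read as a trait of their place.

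Spacing also varied with place. The median gap between neighbouring peaks was 2660 bases (quartiles 1173 and 6208), with 8 gaps under 100 bases and 67 over 10 kb. It was 5451 bases for the first gap of a group, 2359 for the inner gaps and 3220 for the last. The gap limits of the choice apply to all of them, and these differences were not tested. Not every group had a wide first gap, since the first 3 peaks of Cenpe lay close together and its widest gap was an inner one.

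**Figure D4:**
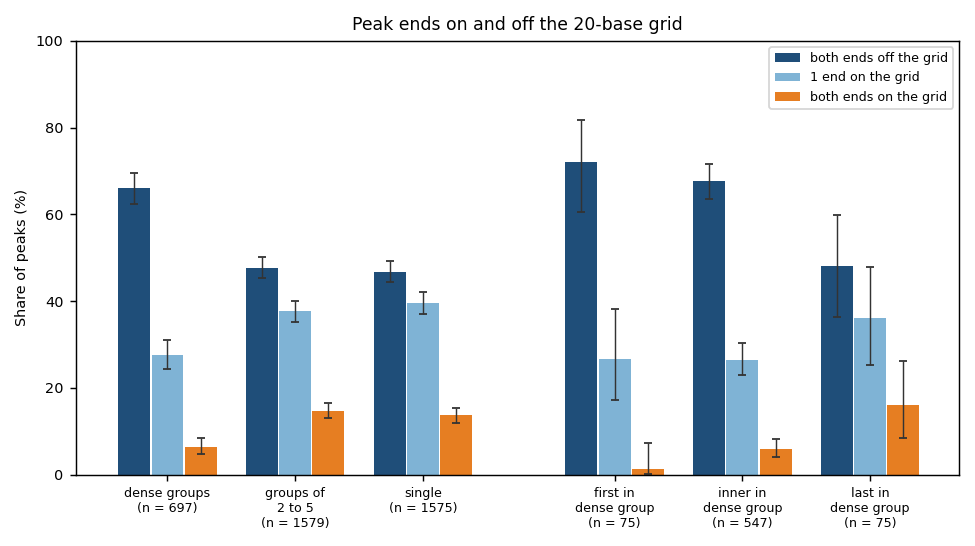
Share of peaks (%) with both, 1 or no end on the 20-base grid, in dense groups, groups of 2 to 5 and single peaks, and by place within the dense groups. Error bars are exact 95% Clopper-Pearson intervals and cover counting error only, and the off-grid share was 66.0% in dense groups and 48.0% in their last peaks.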

How the data were processed

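MeRIP-seq of 3 control and 3 SNI nerve samples, each with IP and input libraries, was used as the deposited list of 4014 differential peaks. Per the labels and the study's methods, the authors trimmed reads with cutadapt (1.9.3), aligned them to rn5 with HISAT2 (2.0.4), used MACS for peak calling and diffReps, over all replicates, for SNI against control. The deposited score column holds −log10 p-values and has no values per library (0 other per-sample columns were found), so that neither depth nor replicate error can be read from it and no test was made. Read totals of the libraries were not used here. Replicates are separate samples by their labels. Peaks were joined at 20000 bases with a minimum of 6 peaks, and length is end minus start as listed. Computation was done in Python (3.11.15), with pandas (2.3.3) and numpy (2.4.6) for tables, scipy (1.17.1) for intervals and matplotlib (3.10.9) for plots, and was tested on simulated data. Shares carry exact 95% Clopper-Pearson intervals for counting error only, which take peaks as independent although peaks of a group share transcripts and libraries. Members, gene lists and thresholds were chosen with earlier results of these data known. Genes were named where a peak had the start and end of a row in the study's annotated peaks or overlapped a printed locus. Unnamed groups were given by the 5 with most peaks, the 3 widest and the 3 with the highest median, beside the 5 highest and 5 longest peaks, and others named were chosen after their values were seen. Current symbols came from the RefSeq table of GRCr8, whose coordinates were not used. Protein sizes and rn5 sequences were not analysed here, and some named groups are not reported here. Alternatives were other join distances, group sizes, score and length thresholds, merging of split peaks, strand, the groups set aside and how distance and the grid are read.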

Additional observations from a re-analysis of the deposited data

How the results depend on the processing

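Of 110 values under other choices, 95 stayed within the main interval (counts: within 1.5 times the main count), 14 moved and 1 changed sign. With neighbours joined at 10000 bases the median gap was 2014 bases, and at 50000 bases 3431.5. A minimum of 8 peaks left 45 groups. With scores of at least 6, the median score was 7.95 and the share at 8 or more 48.5%. With scores of at least 8 there were 19 groups of 157 peaks, the median score was 9.72 and the intraclass correlation of score was −0.0426, where by construction the range of scores is cut, and the share at 8 or more gives no value. With lengths of at least 50 bases, the median length was 141 bases and that of inner peaks 142. With the 3 groups set aside put back, the median score was 7.51, the share at 8 or more 38.4%, the intraclass correlation 0.262 and the median gap 2191.5. The cause was not tested. No paired analysis was possible because the list has no values per library, and for the same reason no replicate could be left out. The list gives no depth behind a peak, so that what depth limits was not assessed.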

Other observations

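Several groups repeated a peak length. In 12 groups, a length of 30 bases or more occurred more than once among peaks with both ends off the 20-base grid. Repeats were not counted in smaller groups or over the whole list, so that the count is not read as a trait of dense groups. In an unnamed group of 11 peaks on the minus strand of chromosome 1 (43236640 to 43261857), 165 bases occurred 3 times and 159 bases 2 times. In Cenpe, 159 bases occurred 3 times and 120 bases 2 times, and Smc2 had 234 bases 2 times. An unnamed group on chromosome 7 (58477059 to 58512940) had 72 bases 3 times, and another on chromosome 1 (236214561 to 236266629) had 939 bases 2 times. On chromosome 2 (269844351 to 269894614), the 5 off-grid peaks of a group of 6 were 54, 45, 108, 54 and 54 bases long, each a multiple of 9. These groups were picked after their lengths were seen, and no test was made.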
